A study of Homo sapiens with 6 samples.

Results

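NGFR, AQP1, RXRG, SOX2, GFRA2, PTPRZ1 and OLFML2A are 7 genes associated with the neural crest stem-like state of melanoma, and they were followed here in WM266-4 and WM115 cells. They were picked by symbol from the gene-named expression table, which holds 17766 genes, and each had 1 row. The members were selected with their measured differences in view, both between the lines and between the first and the later repeats. Those differences are therefore given as a description, with no test. WM266-4 is an established line from a skin metastasis of melanoma, and WM115 is an established line from a primary skin melanoma. Both lines grew without treatment in DMEM with 10% fetal bovine serum, so each stage was represented by 1 line. The study compared 3 biological replicates of each line on Affymetrix arrays and, by its title, concerns the sorting nexin SNX18 and melanoma migration. For replicate 1 of both lines, RNA came from a miRNeasy micro kit and was read on Human Gene 1.0 ST arrays. For replicates 2 and 3 it came from a GeneAll Hybrid-R miRNA kit and was read on Human Gene 2.1 ST arrays. Repeat, kit and array version changed together, so their parts cannot be told apart.

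The neural crest is the embryonic cell population that gives rise to melanocytes, Schwann cells and peripheral neurons. Melanoma cells can take on a less pigmented state that shares genes with crest progenitors and early glia, and this state has been described among cells that persist under MAPK pathway inhibitors. NGFR is the p75 neurotrophin receptor, AQP1 is a water channel, RXRG is a retinoid X receptor, SOX2 is a stem-cell transcription factor, GFRA2 is the neurturin co-receptor, PTPRZ1 is a receptor tyrosine phosphatase and OLFML2A is a secreted protein with an olfactomedin domain.

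Levels are log2 RMA values, so a difference of 1 is a change of 1 doubling. Array medians over the 12436 genes tested lay between 6.12 and 6.18, and the median gene differed between replicates 2 and 3 by 0.130 in WM266-4 and by 0.153 in WM115. No replicates held identical values. For each gene the mean over the 1.0 arrays and the mean over the 2.1 arrays were nearly equal, with a median absolute difference of 0.0031 and a maximum of 0.112. The deposited values thus carry no difference in level between array versions, and a line's level in replicate 1 cannot be set against its level in replicates 2 and 3. What can be read is how far apart the lines lie, in the deposited values, on arrays of the same version. Whether joining the versions also changed the size of those gaps could not be checked. Whether a signal exceeded background was not assessed, so low levels are not read as absence. In bulk RNA, fewer cells of a type and less RNA per cell cannot be told apart.

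RXRG had one direction throughout. This nuclear receptor (ENSG00000143171, chromosome 1) pairs with retinoic acid, thyroid hormone and PPAR receptors. Its log2 level was 7.42, 8.72 and 8.68 in WM266-4 replicates 1, 2 and 3, against 5.39, 4.48 and 4.01 in WM115. Every WM266-4 array was above every WM115 array. WM266-4 was 4.06-fold higher in replicate 1 and 21.9-fold higher over replicates 2 and 3, log2 differences of 2.02 and 4.46. Over all arrays RXRG averaged 8.27 ± 0.74 in WM266-4 and 4.63 ± 0.70 in WM115 (SD, n = 3 each).

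SOX2 and GFRA2 had the opposite direction, with WM266-4 lower in every pair. SOX2 (ENSG00000181449, chromosome 3), an HMG-box factor of neural and pluripotent stem cells, was at 3.83, 4.65 and 5.18 in WM266-4 and at 7.90, 6.74 and 6.76 in WM115. The lines did not overlap, and SOX2 was 16.8-fold lower in WM266-4 in replicate 1 and 3.57-fold lower over replicates 2 and 3. GFRA2 (ENSG00000168546, chromosome 8), a surface co-receptor that presents neurturin to the RET kinase, was at 2.44, 3.88 and 4.15 in WM266-4 and at 6.51, 4.90 and 4.91 in WM115. Its lines did not overlap either. GFRA2 differed by -4.07 in replicate 1, then by -1.02 and -0.76, so WM266-4 was 16.8-fold lower at first and 1.85-fold lower over replicates 2 and 3. Means were 4.55 ± 0.68 in WM266-4 and 7.13 ± 0.66 in WM115 for SOX2, and 3.49 ± 0.92 in WM266-4 and 5.44 ± 0.93 in WM115 for GFRA2 (SD, n = 3 each).

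The other 4 genes changed sign between the first repeat and the later ones. NGFR (ENSG00000064300, chromosome 17), which binds neurotrophins and marks crest stem cells, was at 5.69, 7.82 and 8.46 in WM266-4 and at 7.87, 5.41 and 5.58 in WM115. Arrays of the same number are set side by side, although beyond the number nothing in the labels pairs the arrays of replicates 2 and 3. WM266-4 was the lower line in replicate 1 and the higher line in replicates 2 and 3, with differences of -2.17, 2.40 and 2.88. These are a 4.51-fold gap in one direction and a 6.24-fold gap in the other.

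AQP1 (ENSG00000240583, chromosome 7), which carries water across the membrane, was at 5.34, 8.22 and 9.12 in WM266-4 and at 10.16, 6.64 and 7.11 in WM115. It was 28.1-fold lower in WM266-4 in the first repeat and 3.48-fold higher there over the later repeats. The line differences were -4.81, 1.59 and 2.01. Of all 12436 genes tested, AQP1, which was chosen with these differences in view, had the largest absolute shift between the first and the later repeats.

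OLFML2A (ENSG00000185585, chromosome 9) was at 6.27, 8.92 and 9.25 in WM266-4 and at 9.50, 7.13 and 6.35 in WM115. Its lines were separated by -3.22, 1.79 and 2.91, a 9.33-fold gap with WM266-4 lower and then a 5.10-fold gap with WM266-4 higher. PTPRZ1 (ENSG00000106278, chromosome 7), the pleiotrophin receptor of glial progenitors, was at 8.07, 10.07 and 9.75 in WM266-4 and at 9.68, 7.94 and 7.85 in WM115. Its differences of -1.62, 2.13 and 1.89 were the smallest of these 4 genes in the first repeat. The gaps of PTPRZ1 were 3.07-fold with WM266-4 lower and 4.03-fold with WM266-4 higher.

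**Figure D1:**
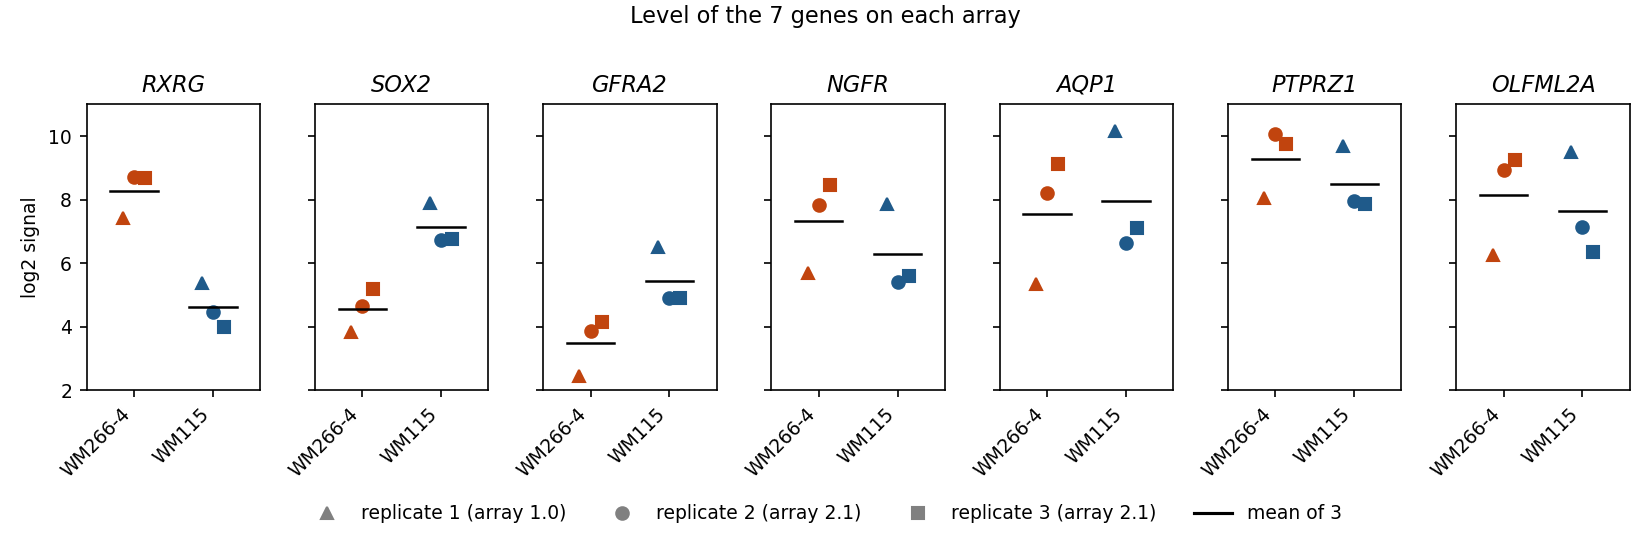
Log2 RMA level of each of the 7 genes on the 6 arrays, WM266-4 left of WM115, with 1 point per array the replicate shown by the marker and the mean of 3 as a line. RXRG is higher in WM266-4 on every array, SOX2 and GFRA2 are lower, and NGFR, AQP1, PTPRZ1 and OLFML2A have their replicate 1 points on the opposite side from replicates 2 and 3.

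The 250 bases before the start of the 4 members below show what lies next to the start sites of 3 genes that changed sign and of SOX2, which did not. Sequences are from RefSeq on GRCh38.p14, 5′ to 3′ on the plus strand, and 5 of the 7 members matched an entry. NGFR and GFRA2 are named only, and RXRG matched but is not printed. Capitals mark matches, on either strand, to CACGTG or CATGTG (E-boxes), ACAANG (a SOX core), AGGTCA (a nuclear receptor half-site), TGANTCA (an AP-1 site) or GGGCGG (a GC box). Neighbouring GC boxes may overlap.
AQP1, chr7:30911603-30911852: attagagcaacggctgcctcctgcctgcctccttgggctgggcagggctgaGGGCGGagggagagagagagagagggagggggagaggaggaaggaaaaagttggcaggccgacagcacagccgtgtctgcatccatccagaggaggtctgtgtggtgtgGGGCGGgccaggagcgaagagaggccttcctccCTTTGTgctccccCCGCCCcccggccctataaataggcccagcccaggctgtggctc
PTPRZ1, chr7:121872911-121873160: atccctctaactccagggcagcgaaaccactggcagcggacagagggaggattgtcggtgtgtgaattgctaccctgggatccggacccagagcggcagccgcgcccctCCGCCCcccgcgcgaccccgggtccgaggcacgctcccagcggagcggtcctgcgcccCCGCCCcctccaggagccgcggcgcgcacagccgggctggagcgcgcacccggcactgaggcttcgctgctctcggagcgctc
OLFML2A, chr9:124776883-124777132: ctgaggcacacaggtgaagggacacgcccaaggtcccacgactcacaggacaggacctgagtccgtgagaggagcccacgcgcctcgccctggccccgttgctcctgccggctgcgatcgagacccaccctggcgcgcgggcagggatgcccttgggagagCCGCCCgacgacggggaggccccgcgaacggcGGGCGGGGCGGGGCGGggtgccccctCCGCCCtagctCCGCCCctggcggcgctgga
SOX2, chr3:181711675-181711924: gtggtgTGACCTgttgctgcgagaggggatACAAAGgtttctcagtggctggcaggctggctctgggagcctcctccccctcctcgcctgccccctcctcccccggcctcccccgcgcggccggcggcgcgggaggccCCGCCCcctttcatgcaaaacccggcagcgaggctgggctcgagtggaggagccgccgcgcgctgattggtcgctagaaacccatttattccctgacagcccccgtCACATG

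The GC box was the one motif held by all 5 matched promoters, with 3 matches for AQP1, 2 for PTPRZ1, 6 for OLFML2A, 1 for SOX2 and 1 for RXRG. It occurs in 42.3% of all 27305 promoters. The SOX core, found in 31.1% of promoters, had 1 match for AQP1 and 1 for SOX2. The half-site, found in 12.1%, had 1 match for SOX2 and 1 for RXRG, and CATGTG, found in 9.54%, had 1 for SOX2. CACGTG, in 6.49% of promoters, and TGANTCA, in 6.6%, had none in these windows. The GC content was 65.2% for AQP1, 73.2% for PTPRZ1, 75.2% for OLFML2A, 68.8% for SOX2 and 62% for RXRG, against a median of 58% over all promoters.

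A mean over the 3 replicates hides the change of sign. It gave WM266-4 minus WM115 differences of 1.04 for NGFR, -0.41 for AQP1, 0.80 for PTPRZ1 and 0.49 for OLFML2A, each smaller than the SD within either line. Like every SD over the 3 replicates here, that SD spans both array versions. It therefore holds the change between versions and is not the spread between like replicates. NGFR averaged 7.32 ± 1.45 in WM266-4 and 6.29 ± 1.37 in WM115 (SD, n = 3 each). AQP1 averaged 7.56 ± 1.97 in WM266-4 and 7.97 ± 1.91 in WM115. PTPRZ1 averaged 9.29 ± 1.08 in WM266-4 and 8.49 ± 1.03 in WM115. OLFML2A averaged 8.15 ± 1.63 in WM266-4 and 7.66 ± 1.64 in WM115.

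All 7 genes lay above the filter on dim genes, a mean of 3.97 over the arrays. GFRA2 averaged 3.49 in WM266-4, under that level, and passed through its mean of 5.44 in WM115. In WM266-4 replicate 1, GFRA2 (2.44) and SOX2 (3.83) were both under it, so their 16.8-fold gaps there rest on low levels. The lines did not overlap over all arrays for 3 of the 7, a state that 51.7% of the 12436 genes tested shared. Over the 2.1 arrays alone the lines did not overlap for 7 of 7, against 67.7% of genes tested. A first pair lower by at least 1 and both later pairs higher by at least 1 were found in 4 of the 7, against 11 genes in all, or 0.0885% of those tested. This count was fixed by the choice of genes. Opposite signs of any size were found in 19.3% of genes tested. One member, RXRG, was higher by at least 1 in all pairs, as were 1.69% of genes tested. SOX2 was lower by at least 1 in all pairs, as were 2.11%, and SOX2 and GFRA2 were lower by at least 0.7, as were 3.99%. No member was higher by at least 1 in the first pair and lower by at least 1 in both later ones, an order that 0.0161% of genes tested had.

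**Figure D2:**
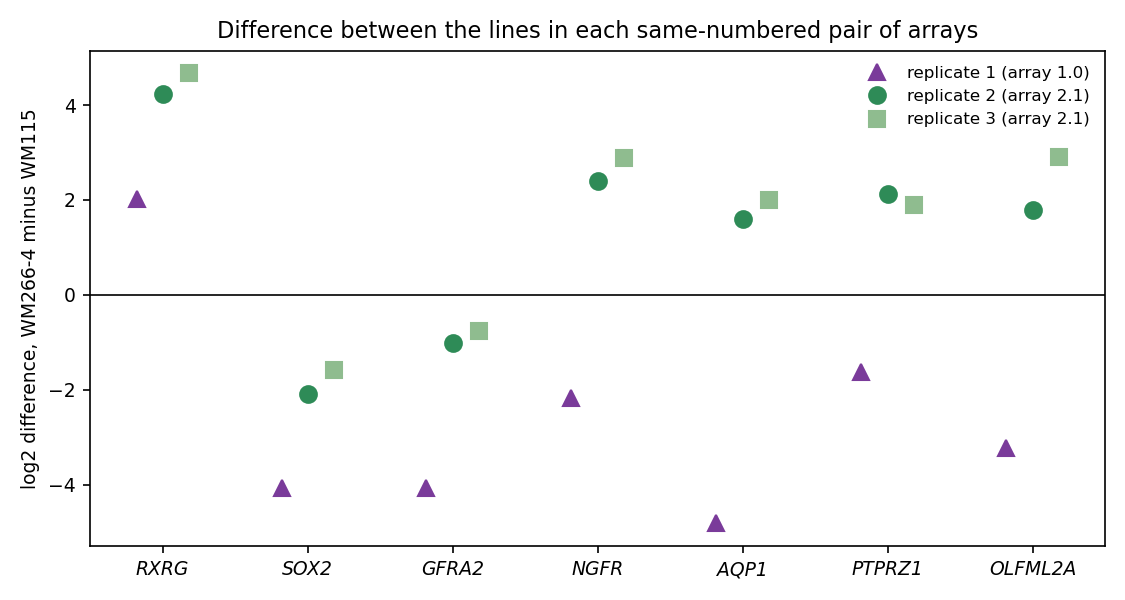
Log2 difference, WM266-4 minus WM115, between arrays of the same replicate number for each of the 7 genes, with 1 point per pair. AQP1 is at -4.81 in replicate 1 and at 1.59 and 2.01 in the other pairs, while RXRG is above 0 and SOX2 and GFRA2 are below 0 in all pairs.

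All 7 genes had a later difference above their first one. They were chosen with these differences in view, so this count and the places below only describe that choice. How many of all genes tested share the direction was not counted. The later mean minus the first difference was 2.43 for RXRG, 2.24 for SOX2, 3.18 for GFRA2, 3.63 for PTPRZ1, 4.82 for NGFR, 5.57 for OLFML2A and 6.61 for AQP1. The median absolute value of this shift over all genes tested was 0.245. Ordered by its absolute size, OLFML2A was in place 4 of 12436, NGFR in place 5, PTPRZ1 in place 34, GFRA2 in place 50, RXRG in place 121 and SOX2 in place 156. Replicates 2 and 3 lay much closer together. Their ranges were 0.64 in WM266-4 and 0.17 in WM115 for NGFR, and 0.89 in WM266-4 and 0.48 in WM115 for AQP1.

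**Figure D3:**
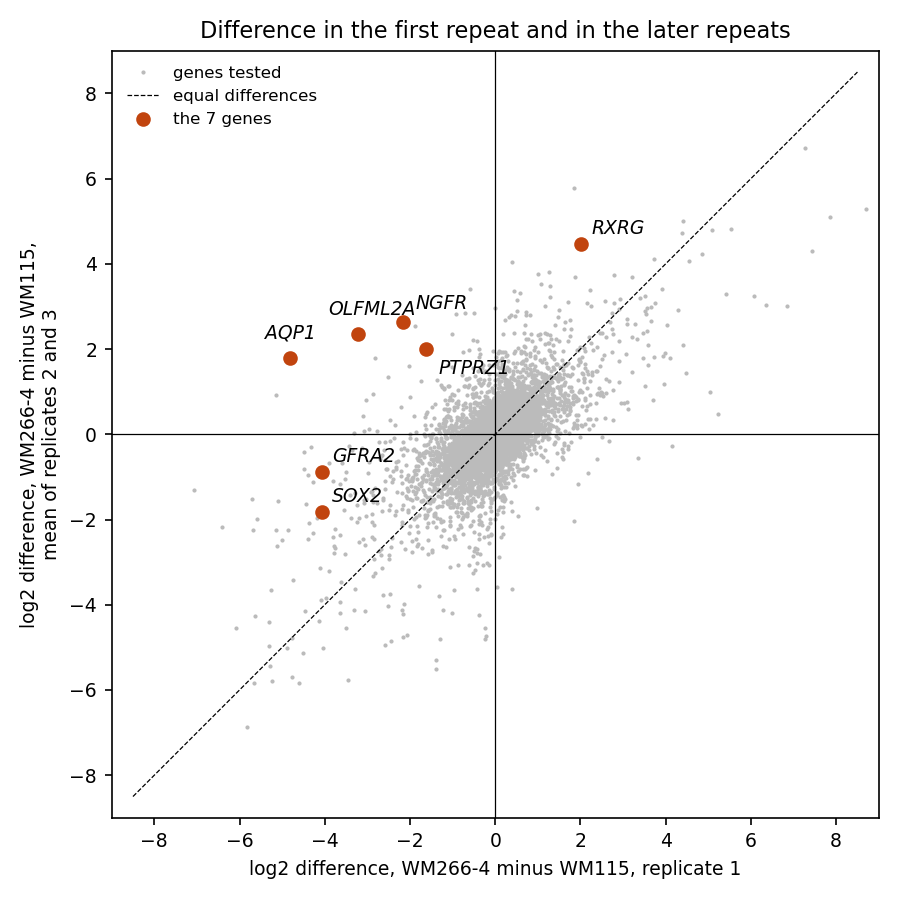
Log2 difference, WM266-4 minus WM115, in replicate 1 (horizontal) and as the mean of replicates 2 and 3 (vertical), with 1 grey point per gene tested and the 7 genes in colour. All 7 lie above the dashed line of equal differences, and AQP1, OLFML2A, NGFR and PTPRZ1 lie left of 0 and above 0.

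The profiles of the members were set against each other after each was centred on its mean over the 6 arrays, with the root-mean-square distance as the measure. SOX2 and GFRA2 were 0.393 apart, NGFR and PTPRZ1 0.419, and NGFR and OLFML2A 0.435. RXRG and SOX2 were 3.12 apart. AQP1 was 0.648 from OLFML2A, 0.844 from NGFR and 1.00 from PTPRZ1, then 1.14 from GFRA2, 1.51 from SOX2 and 2.28 from RXRG. The other 3 genes that changed sign were thus its nearest members, although GFRA2 was only slightly farther than PTPRZ1. RXRG was 1.45 from NGFR, the member nearest to it, and SOX2 and GFRA2 were the closest pair.

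Genes that work with the members were tested with limma over all 12436 genes, with array version as a term, and 26.9% of them differed between the lines at an adjusted p under 0.05, 13.6% higher and 13.3% lower in WM266-4. On the 2.1 arrays alone 31.5% differed, 15.9% higher and 15.6% lower. The median difference over all genes tested was 0.01. A second fit tested whether the difference itself differed between array versions, and 5.48% of genes passed, 3.03% with a higher and 2.44% with a lower later difference. The 1.0 arrays hold 1 array of each line, so the error of this version test comes from replicates 2 and 3 (2 residual degrees of freedom), and the replicate 1 arrays are assumed to vary as those do. Every call of the version test holds only under that assumption. The p-values measure the spread between these samples. The lists were assembled with earlier results of these data known. How far a list's count departs from the shares given here, in any of these tests, therefore only describes that list. Adjusted p-values below are limma's.

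The ligands and co-receptors of NGFR gave 2 genes higher, 0 lower and 10 not called among 12 tested, with a median difference of 0.17. At an unadjusted limma p under 0.05, 1 was lower. Without WM115 replicate 3 or WM266-4 replicate 2, 1 gene was called. Sortilin (SORT1), which binds proneurotrophins with NGFR, was higher in WM266-4 at 10.11 ± 0.40, against 8.53 ± 0.37 in WM115 (SD, n = 3 each), a difference of 1.58 ± 0.27 (SE, adjusted p = 0.00869). The related sorting receptor SORCS1 was higher by 2.71 ± 0.48 (adjusted p = 0.0104), with differences of 1.07, 3.83 and 3.23 in the 3 pairs. That call was lost without WM115 replicate 3 or without WM266-4 replicate 2 (adjusted p up to 0.0505). The difference of SORCS1 was larger on the 2.1 arrays (by 2.46 ± 0.30, adjusted p = 0.00322), the direction in which the NGFR difference also shifted. The neurotrophins BDNF and NTF3 and the receptors NTRK2 and NTRK3 were below the filter. BDNF averaged 3.61 in WM266-4 and 4.15 in WM115.

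Among 19 other TNF receptor superfamily genes, 3 were higher, 8 lower and 8 not called, with a median of -0.26. The 11 calls became 5 without WM266-4 replicate 2 and 7 without WM115 replicate 2 or WM266-4 replicate 3. EDA2R, the receptor of an ectodysplasin isoform, was higher by 3.22 ± 0.16 (adjusted p = 0.00019), and TNFRSF14 by 1.33 ± 0.14 (adjusted p = 0.00219). The TRAIL decoy receptor TNFRSF10D fell by 3.53 ± 0.30 (adjusted p = 0.00122). TNFRSF12A, the TWEAK receptor, fell by 1.55 ± 0.27 (adjusted p = 0.0104), a call lost without WM266-4 replicate 2 (adjusted p = 0.051).

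In the GDNF family, which signals through GFRA2 and its relatives, 1 of 8 tested genes was higher, 2 lower and 5 not called, with a median of 0.30. Without either array of replicate 1, 5 were called. GFRA1, the GDNF co-receptor, was lower, the direction GFRA2 had, at 3.76 ± 0.23 in WM266-4 and 6.10 ± 0.31 in WM115, a difference of -2.34 ± 0.20 (adjusted p = 0.00116). The adhesion molecule NCAM1, an alternative receptor for GDNF, fell by 3.86 ± 0.27 (adjusted p = 0.000598). Syndecan SDC3 was higher by 0.53 ± 0.14 (adjusted p = 0.0323), and its call was lost when any array of replicate 2 or 3 was left out (adjusted p up to 0.13). Neither neurturin (NRTN, 0.42 ± 0.17, adjusted p = 0.11) nor GDNF (-0.34 ± 0.26, adjusted p = 0.388) was called. RET was below the filter, at a mean of 3.72 in WM266-4 and 3.38 in WM115.

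Of 10 tested ligands and partners of PTPRZ1, 2 were higher, 2 lower and 6 not called, with a median of -0.25. Pleiotrophin (PTN), its main ligand, was higher in all pairs, at 6.83 ± 0.30 in WM266-4 and 4.45 ± 0.29 in WM115, a difference of 2.38 ± 0.21 (adjusted p = 0.00128). The pairs were 1.75, 2.51 and 2.88, so the ligand kept one direction where PTPRZ1 did not. L1CAM was higher by 2.35 ± 0.33 (adjusted p = 0.00508). NFASC, an adhesion molecule of nodes of Ranvier, fell by 1.50 ± 0.21 (adjusted p = 0.00509), and the kinase ALK fell by 1.39 ± 0.18 (adjusted p = 0.00421). Midkine (MDK, -0.37 ± 0.21, adjusted p = 0.245) and tenascin-C (TNC, -0.17 ± 0.22, adjusted p = 0.597) were not called.

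Retinoid genes gave 2 higher, 5 lower and 10 not called among 17 tested, with a median of -0.08, and 0 passed limma's version test after adjustment against 6 at an unadjusted p under 0.05. The 7 calls between the lines became 3 without WM266-4 replicate 2 and 4 without WM115 replicate 2. The other retinoid X receptors did not share the size of RXRG. RXRA had a difference of 0.06 ± 0.11 (adjusted p = 0.695), and RXRB fell by 0.37 ± 0.10 (adjusted p = 0.0339), a call lost without any single array (adjusted p up to 0.116). The retinol transporter STRA6 fell by 1.83 ± 0.13 (adjusted p = 0.000584) and the receptor PPARD fell by 0.82 ± 0.10 (adjusted p = 0.00378). PPARA was higher by 0.67 ± 0.11 (adjusted p = 0.00888), and the retinaldehyde dehydrogenase ALDH1A3 by 0.63 ± 0.13 (adjusted p = 0.0173). The ALDH1A3 call was lost without WM115 replicate 3, WM266-4 replicate 2 or WM266-4 replicate 3 (adjusted p up to 0.0651). Of the other aquaporins, 3 were tested and 0 were called by limma, also 0 at an unadjusted p under 0.05, with a median of -0.03.

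In the SOX family other than SOX2, 0 of 13 tested genes were higher, 3 lower and 10 not called by limma, with a median of -0.03, and 1 was higher at an unadjusted p under 0.05. The number called was 1 without WM115 replicate 2 and 0 without WM115 replicate 3 or WM266-4 replicate 2 or 3. SOX9, a crest and cartilage factor, fell by 1.01 ± 0.23 (adjusted p = 0.0221), SOX11 fell by 0.87 ± 0.23 (adjusted p = 0.038) and SOX4 fell by 0.87 ± 0.19 (adjusted p = 0.021). The SOX9 and SOX11 calls were lost without any one array of replicates 2 and 3 (adjusted p up to 0.094 and 0.14), and the SOX4 call without 3 of those 4 arrays (adjusted p up to 0.0801). SOX4 was named after its value was seen. SOX10, the factor that keeps crest and melanocyte identity, was at 8.09 ± 0.14 in WM266-4 and 7.90 ± 0.24 in WM115, and was not called (adjusted p = 0.418).

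Among 7 tested stem-cell factors, 2 were higher, 1 lower and 4 not called, with a median of 0.10, and 1 was called without any one array of replicates 2 and 3. MYC was higher by 1.34 ± 0.10 (adjusted p = 0.000755). The intermediate filament nestin (NES) was higher by 0.77 ± 0.22 (adjusted p = 0.0432) and KLF4 fell by 0.72 ± 0.21 (adjusted p = 0.0495). The NES call was lost without any one array of replicates 2 and 3 (adjusted p up to 0.143), and the KLF4 call without any single array (adjusted p up to 0.133). Of 3 tested olfactomedin-domain genes, OLFML1 was higher by 2.57 ± 0.44 (adjusted p = 0.00943), while OLFML3 fell by 1.80 ± 0.18 (adjusted p = 0.00198) and OLFM2 fell by 1.26 ± 0.20 (adjusted p = 0.00725). OLFML1 averaged 2.90 in WM115, under the filter level of 3.97. The median of the 3 genes was -1.26.

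**Figure D4:**
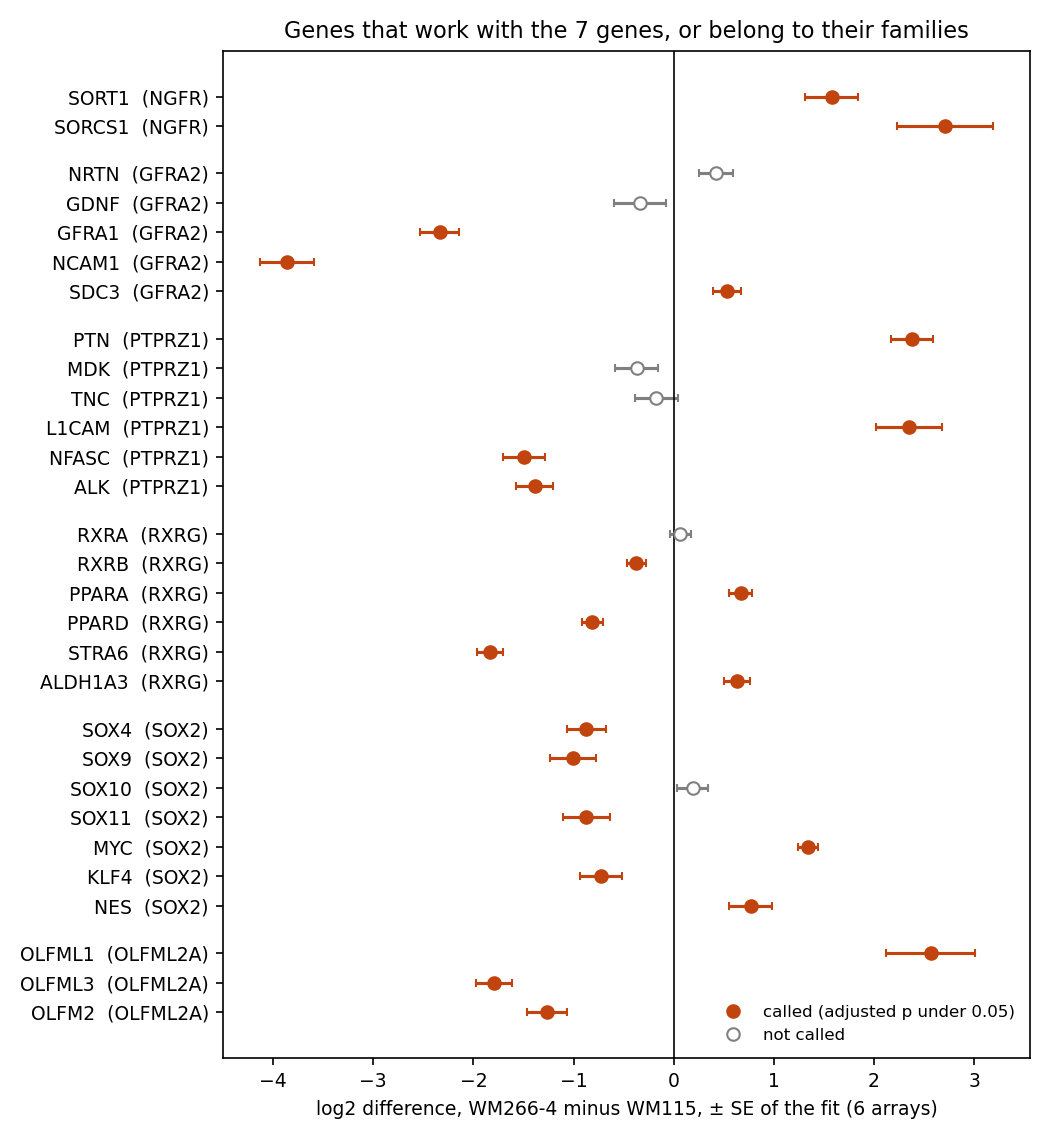
Log2 difference, WM266-4 minus WM115, with the SE of the limma fit over 6 arrays, for genes that work with a member (named in brackets) or belong to its family. Filled points passed an adjusted p of 0.05: pleiotrophin (PTN, 2.38) and sortilin (SORT1, 1.58) are higher, while GFRA1 (-2.34) and NCAM1 (-3.86) are lower.

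Of 25 tested crest factors, 2 were higher, 5 lower and 18 not called, with a median of -0.03, a called share near the 26.9% of all genes tested. The 7 calls became 3 without WM115 replicate 2, 4 without WM266-4 replicate 2 or 3, and 11 without either array of replicate 1. TFAP2B was higher by 2.76 ± 0.24 (adjusted p = 0.00123) and the endothelin receptor EDNRB by 1.50 ± 0.27 (adjusted p = 0.0108). The EDNRB call was lost without WM115 replicate 2 (adjusted p = 0.0525). TWIST1 fell by 2.49 ± 0.20 (adjusted p = 0.000853) and ID3 fell by 2.03 ± 0.31 (adjusted p = 0.00677).

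The version test called 9 of the 25, 8 with a higher later difference and 1 with a lower one. FOXD3, an early crest factor, had differences of -0.47, 1.19 and 1.02 in the 3 pairs, and its later difference was higher by 1.57 ± 0.23 (adjusted p = 0.00839). The line difference of TFAP2A was higher on the 2.1 arrays by 1.46 ± 0.22 (adjusted p = 0.00919), that of SNAI2 by 1.30 ± 0.23 (adjusted p = 0.017) and that of ID2 by 2.62 ± 0.21 (adjusted p = 0.000653). The line difference of SOX9 was the exception, with a shift of -1.07 ± 0.23 (adjusted p = 0.0368), a call lost without WM266-4 replicate 3 (adjusted p = 0.0719). WM266-4 stayed the lower line in all pairs for ID2 (-3.51, -0.95 and -0.82) and SNAI2 (-1.39, -0.12 and -0.05). TFAP2A had pair differences of -1.45, 0.11 and -0.10. In these 3 genes the gap became smaller on the 2.1 arrays and WM266-4 did not become clearly the higher line. TFAP2A, SNAI2 and ID2 were named after their values were seen. Of all genes tested, the version test called 5.48%.

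The Schwann lineage, the glia that share a crest origin, was followed through its markers. Of 21 tested, 4 were higher, 4 lower and 13 not called between the lines, with a median of 0.15, and the version test called 6 with a higher and 2 with a lower later difference. The 8 calls between the lines became 4 or 5 without any one array of replicates 2 and 3. ERBB3, the neuregulin receptor, had pair differences of -0.00, 2.86 and 3.07 (version test 2.97 ± 0.31, adjusted p = 0.00184). Its line difference of 1.97 ± 0.57 (adjusted p = 0.0477) was not called without any one array of replicates 2 and 3 (adjusted p up to 0.163). The glial calcium binder S100B had -1.17, 0.93 and 0.68 (1.98 ± 0.24, adjusted p = 0.00318). MBP ran the other way, at 5.04, 1.33 and 0.67 (-4.04 ± 0.36, adjusted p = 0.00104). On the log2 scale the list's summed signal was 11.70, 12.08 and 12.05 in WM266-4 and 12.09, 11.59 and 11.50 in WM115. The sum changed sign as NGFR did, but by smaller gaps, and bright genes weigh most in it. Not every marker changed sign: L1CAM and MBP were higher in WM266-4 in all pairs, and LGI4 and NCAM1 were lower. The version test called 5.48% of all genes tested. The part of this list in the result was not tested. S100B and MBP were named after their values were seen. MBP was at 2.83 in WM115 replicate 1, under the filter level of 3.97, so its gap there rests on a low level.

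**Figure D5:**
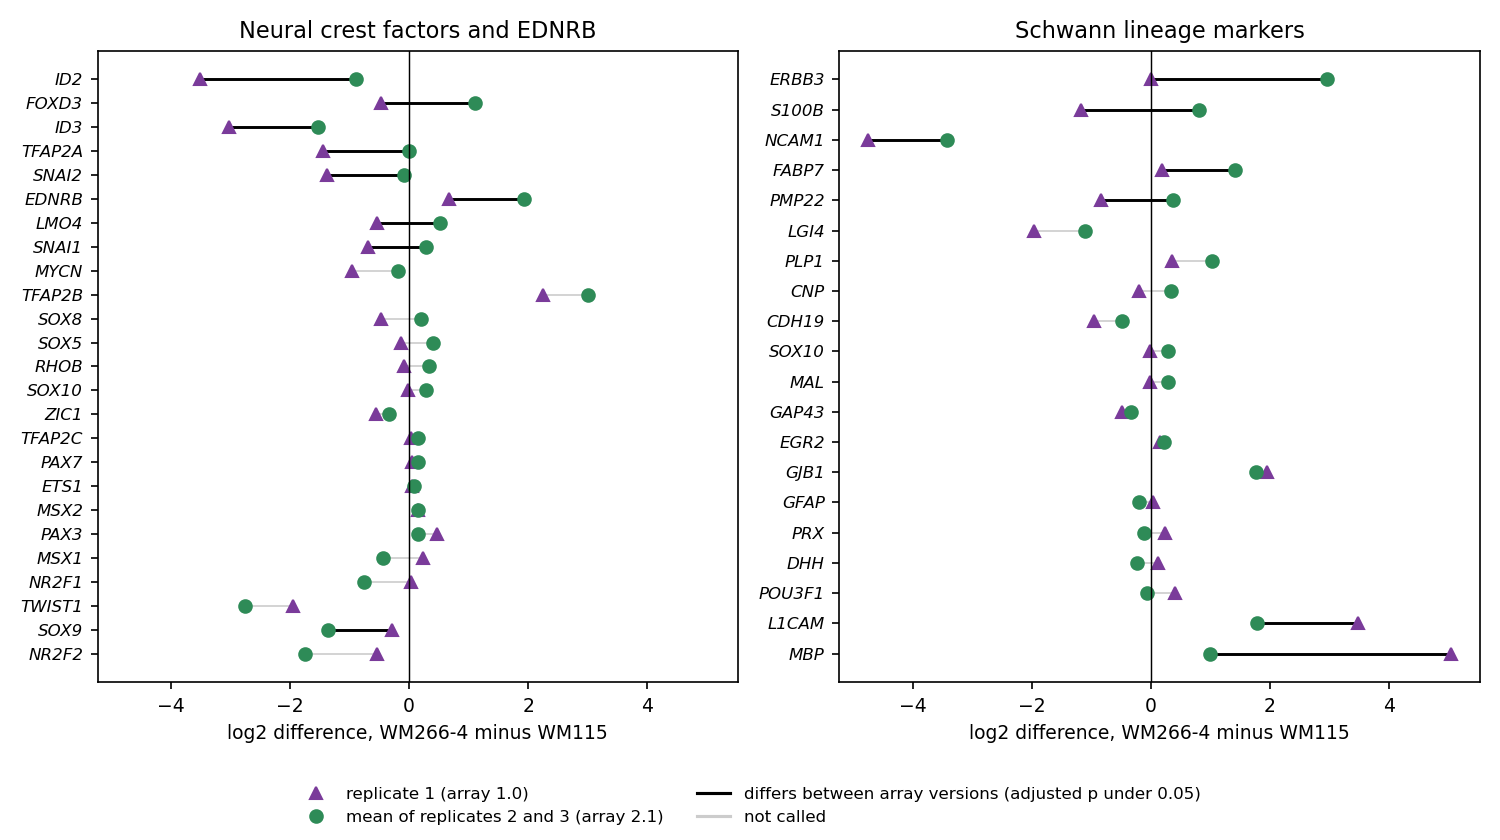
Log2 difference, WM266-4 minus WM115, in replicate 1 (triangles) and as the mean of replicates 2 and 3 (circles) for neural crest genes (left) and most of the Schwann lineage markers tested (right). Dark lines mark genes whose difference differed between array versions at an adjusted p under 0.05, as for ERBB3 (2.97) and FOXD3 (1.57), while MBP (-4.04) runs the other way.

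The lineage and state genes of melanoma had clear directions between the lines. Of 13 tested melanocyte differentiation genes, 12 were higher and 1 was not called, with a median of 4.00, against 13.6% higher among all genes tested. The version test called 6 of them with a lower later difference and 0 with a higher one, against 7 called at an unadjusted limma p under 0.05 in either direction. The members shifted the other way, but they were chosen with that shift in view, so no contrast is read from it. Among all genes tested the version test called 5.48%. MITF, the master regulator of the lineage, was higher by 2.83 ± 0.13 (adjusted p = 0.000144) and tyrosinase (TYR) by 6.91 ± 0.20 (adjusted p = 3.17e-05). In WM115, TYR averaged 3.17 and DCT 2.79, under the filter level of 3.97, as did most of the 13 genes. Such genes passed the filter through WM266-4, so the sizes of their gaps rest on low levels in WM115. Of 18 tested genes of the undifferentiated or invasive state, 0 were higher, 12 lower and 6 not called, with a median of -1.12. Of all genes tested, 13.3% were lower. At an unadjusted limma p under 0.05 still 0 of the 18 were higher. The version test called 2 of these 18 with a higher and 4 with a lower later difference. The cadherin CDH13 fell by 5.39 ± 0.15 (adjusted p = 2.79e-05), and the kinase AXL was not called (-0.37 ± 0.22, adjusted p = 0.264). RXRG had the direction of the first list and SOX2 and GFRA2 that of the second, and the other 4 members had neither in all pairs. The members were chosen with these directions in view, so no cell state is read from them.

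Among markers of other cell types, 7 of 9 fibroblast and 4 of 8 neuron markers were above the filter. Of 7 fibroblast markers tested, 1 was higher, 2 lower and 4 not called, with a summed log2 signal of 9.29, 10.25 and 10.40 in WM266-4 and 8.78, 8.61 and 8.83 in WM115. Of 4 neuron markers, SNAP25 was lower and 3 were not called, with sums of 8.17, 8.83 and 8.89 in WM266-4 and 8.66, 8.28 and 8.25 in WM115. The neuron sum changed sign between repeats through MAP2, at -0.75, 1.82 and 2.04 in the 3 pairs, while SNAP25 and TUBB3 were lower in all pairs and SYP was higher in all. MAP2, TUBB3 and SYP were named after their values were seen. Without either array of replicate 1, 2 neuron markers were called. The keratinocyte marker DSP, the leukocyte marker CD68 and the endothelial marker KDR were the only genes of their lists above the filter, and each was lower in WM266-4. The calls of DSP and CD68 were lost without any one array of replicates 2 and 3 (adjusted p up to 0.115 and 0.0935). The part of these markers in the results was not tested.

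Over the whole table, the genes closest to each member by root-mean-square distance were named, and since likeness chose them no test of them is read here. WNT5A and TNFRSF19 also belong to the invasive and TNF receptor lists and were tested and counted there. NGFR was closest to FHDC1, a formin-family gene, at 0.174, and to the collagen COL15A1 at 0.389. AQP1 was closest to bone sialoprotein (IBSP) at 0.436 and to the VEGF receptor FLT1 at 0.587, and OLFML2A to FLT1 at 0.384 and FHDC1 at 0.429. PTPRZ1 was closest to glycine decarboxylase (GLDC) at 0.250 and to TNFRSF19 at 0.260. SOX2 was closest to the ligand WNT5A at 0.143 and to podocalyxin (PODXL) at 0.167. GFRA2 was closest to the collagenase MMP1 at 0.123 and to secretogranin SCG2 at 0.139, and RXRG to the metalloprotease ADAM19 at 0.283 and the kinase DCLK1 at 0.358. FHDC1 had pair differences of -1.89, 2.32 and 2.79, the pattern of NGFR.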

How the data were processed

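The authors deposited 1 gene-named table of log2 expression values over 6 arrays. Per the submitters' processing notes, RMA and Affymetrix Expression Console were used; no source used here says how the array versions were joined. The series' value tables for each array version were not used, because nothing here pairs their probe sets with gene names. The table had 18887 rows and 17766 symbols; of 1721 rows with a repeated symbol, the row with the highest mean was kept. Genes at or above the 30th percentile of mean level (3.97) were tested with limma 3.58.1 in R 4.3.3, with line and array version as terms and Benjamini-Hochberg adjustment over 12436 genes (called: adjusted p under 0.05). A line-by-version term gave the version test. The scripts were tested on simulated data. Tables were made with Python 3.11.15 and pandas 2.3.3.

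The members and the 18 lists were chosen with earlier results of these data known. Of 253 list genes, 249 matched. Named were the members, up to 2 called genes per direction and list, preset partners and the 2 nearest genes of each member; genes outside this rule are said to be so, and a few genes under it are not reported here. The number of arrays limits the precision. Alternatives covered the filter, covariates, prior, normalization, repeated symbols and left-out arrays.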

Additional observations from a re-analysis of the deposited data

Results flagged for a closer look

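In 4 members every pair of one version moved opposite to every pair of the other. The later difference minus the first was 4.82 for NGFR, 6.61 for AQP1, 3.63 for PTPRZ1 and 5.57 for OLFML2A, and since these genes were chosen for it the difference was not tested.

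Further genes named here had a line difference that differed between array versions by limma's version test, with adjusted p-values from 0.000401 for COL1A2 to 0.0498 for SNAI1. Repeat, extraction kit and array version cannot be told apart in any of them. Among crest and SOX genes the later difference minus the first was 2.62 for ID2, 1.87 for SOX6, 1.57 for FOXD3, 1.50 for ID3, 1.46 for TFAP2A, 1.30 for SNAI2, 1.26 for EDNRB, 1.06 for LMO4, 0.98 for SNAI1 and -1.07 for SOX9. Among Schwann lineage markers it was 2.97 for ERBB3, 1.98 for S100B, 1.32 for NCAM1, 1.22 for FABP7, 1.21 for PMP22, -1.69 for L1CAM and -4.04 for MBP. Among partners of the members it was 2.46 for SORCS1, 1.64 for NRCAM, 1.64 for POU3F2, 1.30 for GDNF, 1.01 for TNC, 1.00 for KLF4, -1.53 for TNFRSF10D and -2.32 for OLFML1. Among state genes and markers of other cell types it was 3.94 for COL1A2, -1.13 for PDGFRB, -1.74 for DSP, -2.08 for CD68, -2.90 for EGFR and -3.41 for DCT. Some large shifts rest on levels under the filter level of 3.97. In WM115 replicate 1, MBP was at 2.83, DCT at 1.59 and OLFML1 at 2.11. EGFR was at 2.79 and 3.34 in WM266-4 replicates 2 and 3. SOX6, LMO4, SNAI1, FABP7, PMP22, NRCAM and POU3F2 were named after their values were seen. The test assumes that the replicate 1 arrays vary as those of replicates 2 and 3 do. The version calls of SNAI1, KLF4, LMO4, PDGFRB, SOX9, TNC and EDNRB were lost when WM266-4 replicate 2 or 3 was left out, with adjusted p up to 0.116. Without the filter, the version calls of DCT, KLF4, PDGFRB and SNAI1 were lost. Under quantile normalization, those of DCT, EDNRB, PDGFRB, PMP22 and TNC were lost.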

How the results depend on the processing

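The members' differences depended on the arrays used. On the 1.0 arrays alone they were -2.17 for NGFR, -4.81 for AQP1, 2.02 for RXRG, -4.07 for SOX2, -4.07 for GFRA2, -1.62 for PTPRZ1 and -3.22 for OLFML2A. On the 2.1 arrays alone they were 2.64, 1.80, 4.46, -1.83, -0.89, 2.01 and 2.35 in the same order. Leaving out 1 array gave ranges of 0.39 to 2.64 for NGFR, -1.29 to 1.80 for AQP1, 3.28 to 4.46 for RXRG, -2.94 to -1.83 for SOX2, -2.33 to -0.89 for GFRA2, 0.36 to 2.01 for PTPRZ1 and -0.26 to 2.35 for OLFML2A. The genes called between the lines ranged from 1400 to 3914, those of the version test from 665 to 1264 and the called list genes from 51 to 95. Genes near 0 changed sign when 1 array was left out: GDNF (-0.49 to 0.10), NRCAM (-0.26 to 0.54), PMP22 (-0.20 to 0.37), POU3F2 (-0.094 to 0.73), S100B (-0.12 to 0.81), SNAI1 (-0.18 to 0.29), TFAP2A (-0.66 to 0.0067) and TNC (-0.31 to 0.16). PMP22 was also at 0.012 under quantile normalization. With a version term, leaving out 1 array of replicate 1 leaves the difference to the 2.1 arrays alone. The upper end of each of these ranges is that 2.1 difference. Why the versions differ was not tested. Whether replicate numbers pair the samples could not be read from these values: equal means per array version force the replicate 1 deviations of the lines to mirror each other (r = -0.998). With the replicate block 2398 genes and 61 list genes were called, 4193 on the 2.1 arrays, and the members' differences were unchanged. Without a version term 4714 genes were called, without the filter 3450 and with a filter at the 50th percentile 2768. Among named genes, calls of the line difference were lost without the filter for ERBB3, ID2, KLF4 and NES, under quantile normalization for ID2, KLF4 and NES, and with a robust prior for DSP, ERBB3, ID2 and KLF4. With the replicate block they were lost for CD68, DSP, ERBB3, FABP7, ID2, KLF4, NES, PDGFRB, RXRB, SDC3, SOX9 and SOX11.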

Other observations

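Of the 11 genes lower by at least 1 in the first pair and higher by at least 1 in both later pairs, 7 were not members, and they were named after their values were seen. The VEGF receptor FLT1 had differences of -2.83, 1.61 and 1.98, and the formin-family gene FHDC1 had -1.89, 2.32 and 2.79. Glycine decarboxylase (GLDC) had -2.02, 1.72 and 1.46, the collagen COL15A1 -1.01, 2.48 and 2.21, and the secreted protease ADAMTS1 -1.74, 1.21 and 1.30. TNFRSF19 had -1.11, 1.61 and 1.63, and FGL2 -1.28, 1.27 and 1.02. The opposite order was found in 2 genes, 0.0161% of those tested: METTL7B at 1.85, -1.37 and -2.68 and VEPH1 at 1.95, -1.17 and -1.16.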
